A study of Mus musculus with 13 samples.

Results

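Genes for the transport and handling of iron, zinc, copper and magnesium were followed in stem cells of the mouse small intestine, in their progeny and in Lgr5-expressing cells of the hair follicle. They were chosen by symbol as the solute carriers of families 11, 30, 31, 39, 40 and 41, together with Cybrd1, Heph, Tfrc, Fth1, Ftl1, Mt1, Mt2, Atp7a and Atp7b. RefSeq lists 41 such genes, and 39 of them were measured among 17097 genes in all. Slc11a2, the importer of ferrous iron, has no value because its probe sets also name another gene, and Mt2 has no named probe set. The samples were 3 of hair follicle cells, 3 of villus epithelium, 3 of intestinal GFPdim cells and 4 of intestinal GFPbright cells. By the labels every sample came from C57BL/6 mice carrying Lgr5-EGFP-ires-CreERT2, an allele that places GFP under the promoter of the stem cell gene Lgr5, and 3 mice went into each. GFPbright cells were the crypt cells with the most GFP, and GFPdim cells were crypt cells with less. Villus samples were the complete epithelium of the villus. The hair follicle cells are titled GFPdim as well and are taken from the hair bulge in the methods, with a longer trypsin treatment in some cases. Age and sex are not given in the sources used here, nor whether villus cells passed a gate. GFP marks only cells in which this promoter is active, and a group is a gate on brightness and not a purified cell type. For GFPbright 2, GFPdim 2 and GFPdim 3 a further label contradicts the title on GFP level, and it also gives a high level for the villus samples and for the hair follicle samples titled GFPdim. The titles were used.

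Iron enters an enterocyte from the gut lumen as ferrous iron after reduction at the brush border, is stored in ferritin, and leaves toward the blood through ferroportin, where the ferroxidase hephaestin oxidizes it. Dividing cells take iron from transferrin instead, through the transferrin receptor. Zinc is brought into the cytosol by ZIP carriers (Slc39) and removed from it, to the outside or into vesicles, by ZnT carriers (Slc30), and some members of both families carry manganese. Copper enters through Ctr1 and is pumped out by the ATPases Atp7a and Atp7b, while metallothioneins bind zinc and copper in the cytosol.

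RNA was hybridised to arrays of the Affymetrix type HT MG-430 PM, and values are RMA intensities on a linear scale, with 1 probe set per gene. The number of arrays limits the precision. Probe sets differ in response, so levels were compared between groups and never between genes. An intensity of 7.9 was taken as the level of a gene without signal, from 84 probe sets of odorant, pheromone and bitter taste receptors, and is called the receptor level here. A group mean at or below it gives a fold change only as a bound, written as at least, with the receptor level in place of that mean. Array medians were 7.8 to 8.7, the 75th percentile was 37.6 in GFPdim 1 and 40.6 to 52.1 in the others, and log2 values of arrays of 1 group correlated across genes at 0.978 to 0.994. Lgr5 itself was at 478.8 to 687.1 in hair follicle cells, 4.8 to 6.8 in villus, 12.6 to 66.1 in GFPdim and 532.8 to 793.1 in GFPbright cells. By markers listed for each cell type, 4 of 4 for keratinocytes were above the receptor level in hair follicle cells, and 5 of 5 for enterocytes in villus and 0 of 5 in hair follicle cells. The villus arrays also held T cell RNA, 3 of 3 markers with a sum of 121.4 to 240.0, against 18.3 to 20.5 in GFPbright cells. The methods count the samples of each group as biological replicates, and on their independence the labels say no more than the 3 mice in each. The p-values measure the spread between these samples.

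Villus epithelium differed from GFPbright cells in most of these genes, mainly upward. With limma, 23 of the 39 were higher in villus and 7 lower at an adjusted p under 0.05, while 22.6% of all genes were higher and 26.3% lower (48.9% in either direction). The median log2 difference was 0.59 over the 39 genes and 0.02 over all genes. Of 7 iron genes 6 were higher and 1 lower, of 10 ZnT genes 7 were higher, of 14 ZIP genes 5 were higher and 4 lower, of 4 copper genes 3 were higher, and of 3 magnesium genes 2 were higher and 1 lower. Many genes of the array are silent in all 4 groups, whereas 36 of these 39 were above the receptor level in at least 1. Among the 11927 genes of the array above that level in a group, 67.2% were called for villus against GFPbright, 58.8% for villus against GFPdim, 67.8% for hair follicle cells against GFPbright, 73.4% for hair follicle cells against villus and 24.7% for GFPdim against GFPbright. In tissue samples of this kind, fewer cells of a type and less RNA per cell cannot be told apart.

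The hair follicle cells split from the GFPbright cells in both directions. In them 13 of the 39 genes were higher and 12 lower, against 19.4% and 29.1% of all genes (48.6% together), with a median log2 difference of -0.01 beside -0.06 over all genes. Of the 36 above the receptor level in a group 25 were called, close to the 67.8% of all such genes. Against villus, 9 were higher in the hair follicle cells and 22 lower, beside 26.9% and 27.4% of all genes (54.3% together), and the median was -0.73 beside -0.04. Of 10 ZnT genes 7 were lower in hair follicle cells than in villus and 0 higher by limma, with 0 higher at an unadjusted p under 0.05 and 0 by the methods' t-test, though a second probe set of Slc30a1 was higher by 1.17 (limma, adjusted p = 0.00708). GFPdim cells differed less from GFPbright cells, with 9 of the 39 higher and 2 lower, beside 6.32% and 10.4% of all genes (16.7% together). The villus was also set against GFPdim cells, where 20 genes were higher and 8 lower, beside 20.8% and 21.3% of all genes (42.1% together). The hair follicle arrays also had a higher summed intensity of 3 melanocyte markers (107.0 to 447.0, against 23.3 to 43.3 in GFPbright cells). The sum came mostly from Dct, with a mean of 217.5 in hair follicle cells and 25.6 in GFPbright cells. Of the 3 markers 1 was called higher, while Tyr and Mlana overlapped GFPbright cells. The haemoglobin gene Hba-a1 was higher in hair follicle cells as well (162.3 to 643.8, against 17.0 to 149.8). Of 3 fibroblast markers 2 were called higher there than in GFPbright cells, at low intensity. Their sum was 28.2 to 82.2 in hair follicle cells and 13.8 to 22.4 in GFPbright cells, mostly from Col3a1 in hair follicle cells (mean 38.7, against 8.35). The part of these RNAs in the differences was not tested. Since these comparisons share arrays, their counts are not independent of each other.

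**Figure D1:**
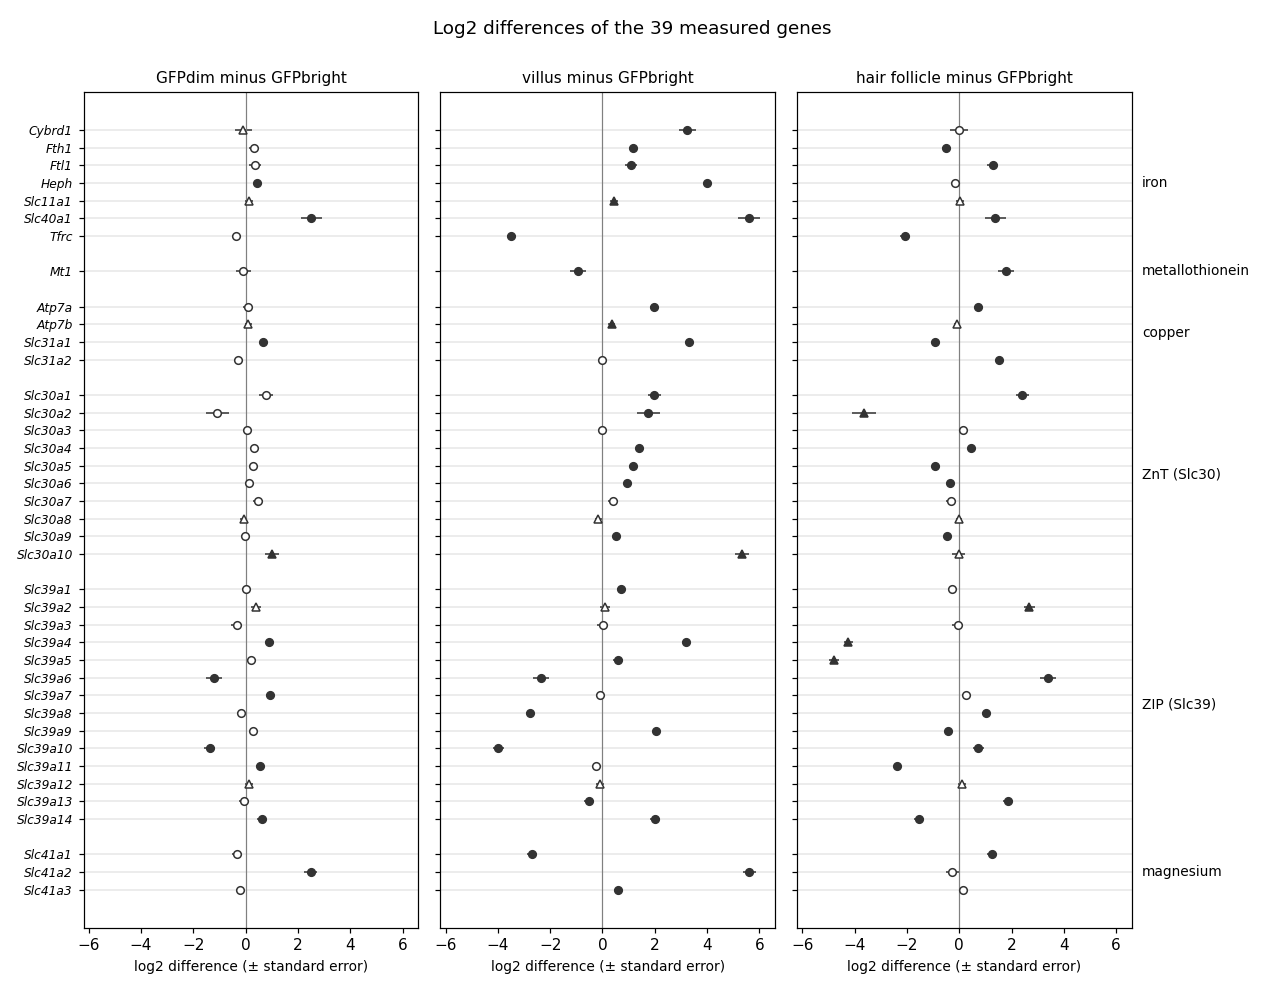
Log2 differences (horizontal axis) of the 39 measured genes, sorted by role, for GFPdim, villus and hair follicle samples, each minus GFPbright. Points are limma estimates with their standard error, filled where the adjusted p is under 0.05, and triangles mark a group mean at or below the receptor level, where the position is no measure of size. Among the circles the villus panel reaches from -3.99 for Slc39a10 to 5.62 for Slc41a2, and the highest in the hair follicle panel is Slc39a6 at 3.39.

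Ferroportin, Slc40a1, the iron exporter of the cell, was among the genes with the largest differences along the crypt and villus. Its intensity was 1454.8, 1802.7 and 1998.4 in villus, 131.9, 216.7 and 294.5 in GFPdim cells, and 15.1, 41.4, 58.5 and 45.0 in GFPbright cells. The 3 intestinal groups did not overlap, and the GFPdim arrays lay between the others. The log2 difference was 5.60 ± 0.41 (SE) for villus against GFPbright (limma, adjusted p = 3.37e-08) and 2.51 ± 0.41 for GFPdim against GFPbright (adjusted p = 0.000771). In hair follicle cells the values were 78.9, 72.1 and 144.3, all above the GFPbright values and far below villus. That difference from GFPbright, 1.39 ± 0.41 (limma, adjusted p = 0.0106), lost its call without hair follicle 3, where it was 1.07 with an adjusted p of 0.0647. Macrophages are rich in ferroportin as well. The summed intensity of 5 macrophage markers was 152.0 to 226.8 in villus and 39.8 to 67.5 in GFPbright cells, mostly from the general leukocyte marker Ptprc (113.1 to 188.2 in villus, 3.7 to 4.6 in GFPbright cells). Of the 5 markers 3 were called higher in villus and 1 lower. The complement genes C1qa (5.3 to 9.8 in villus, 4.1 to 4.9 in GFPbright cells) and C1qb (6.9 to 7.4 in villus, 3.9 to 4.3 in GFPbright cells) were above GFPbright cells at low intensity, Csf1r (15.5 to 18.7 in villus, 13.6 to 18.9 in GFPbright cells) overlapped, and Cd68 was lower (5.3 to 8.0 in villus, 11.3 to 36.5 in GFPbright cells). The part of these cells in the difference was not tested. A second probe set of Slc40a1 moved the same way in each comparison, by 5.38 for villus and 1.45 for hair follicle cells against GFPbright.

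Hephaestin, the Heph product, oxidizes the iron that ferroportin releases. Heph was at 1801.7, 1584.6 and 1394.0 in villus, 118.3, 137.0 and 150.7 in GFPdim cells, and 106.0, 98.2, 98.9 and 93.3 in GFPbright cells. The villus arrays stood far above the crypt arrays, at a log2 difference of 4.00 ± 0.13 from GFPbright and 3.56 ± 0.14 from GFPdim cells (limma, adjusted p = 1.68e-11 and 2.51e-10). GFPdim cells were above GFPbright cells by only 0.44 ± 0.13 (adjusted p = 0.0296), and this call did not last with a number shared in the titles as a replicate block (adjusted p = 0.0853). It was also lost without any one of GFPbright 2, 3 or 4 or GFPdim 2 or 3, at adjusted p of 0.0567 to 0.130. Hair follicle cells had 79.5, 98.2 and 92.5, overlapping GFPbright cells, with a log2 difference of -0.14 ± 0.13 (adjusted p = 0.422). Whether Slc40a1 and Heph differ in their response there was not tested.

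Cybrd1 encodes duodenal cytochrome b, a ferric reductase of the brush border. Its probe set read 48.9, 150.2 and 64.4 in villus, 8.4, 7.3 and 7.5 in GFPdim cells, 5.3, 9.0, 12.5 and 7.6 in GFPbright cells, and 8.9, 7.0 and 8.7 in hair follicle cells. The villus arrays stood above all others and differed among themselves, with villus 2 the highest, while the other groups straddled the receptor level. The log2 difference of villus was 3.25 ± 0.33 from GFPbright cells (limma, adjusted p = 1.10e-06), and at least 9.66-fold from GFPdim cells. A second Cybrd1 probe set averaged 180 in villus and 3.70 in GFPbright cells and was called as well. Slc11a1, the metal carrier of macrophage phagosomes, stayed at 4.9 to 8.1 on all 13 arrays, with every group mean below the receptor level, so no fold is given. It counts among the 6 iron genes called higher in villus (limma, adjusted p = 0.0301), although its groups overlap, and the call was lost under quantile normalization (adjusted p = 0.0514), in a fit of these arrays alone (adjusted p = 0.0504) and without any one of GFPbright 1, 2 or 4 or villus 2 or 3 (adjusted p of 0.0747 to 0.111).

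Tfrc, the receptor that takes up transferrin-bound iron, ran opposite to these genes. Villus had 146.4, 210.4 and 172.5, GFPdim cells 1158.8, 1673.9 and 1826.8, and GFPbright cells 1831.1, 2047.1, 1983.8 and 1961.8. Villus was lower than GFPbright cells by a log2 difference of -3.49 ± 0.17 and lower than GFPdim cells by -3.13 ± 0.19 (limma, adjusted p = 7.39e-10 and 1.06e-08). GFPdim cells lay just below GFPbright cells without overlap, yet the difference of -0.36 ± 0.17 did not pass (adjusted p = 0.197). Hair follicle cells, with 533.6, 483.4 and 386.2, fell between villus and the crypt cells, at -2.08 ± 0.17 from GFPbright cells and 1.41 ± 0.19 from villus (adjusted p = 1.62e-07 and 1.26e-05). The other 2 probe sets of Tfrc gave smaller differences of the same sign, -1.75 and -1.72 for villus and -1.20 and -1.19 for hair follicle cells against GFPbright. Within the intestine the summed intensity of 3 markers of dividing cells was lowest in villus, as Tfrc was. It was 38.3 to 75.1 in villus, 1723.7 to 2163.3 in GFPdim and 2867.2 to 3219.6 in GFPbright cells. In hair follicle cells the sum was 40.9 to 723.3 and overlapped villus, where Tfrc did not. Of the 3 markers 1 was called higher there than in villus. The part of dividing cells in the Tfrc differences was not tested.

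The ferritin subunits Fth1 and Ftl1, which form the shell that stores iron, separated in hair follicle cells. Fth1, the heavy chain, had 6620.3, 5555.5 and 5596.2 in villus, 2381.0, 3524.6 and 4117.6 in GFPdim cells, and 2450.2, 2631.2, 2653.1 and 2830.2 in GFPbright cells. Ftl1, the light chain, had 1547.3, 1459.4 and 1308.9 in villus, 1222.4, 654.8 and 764.2 in GFPdim cells, and 805.3, 638.4, 505.0 and 774.0 in GFPbright cells. Both were higher in villus than in GFPbright cells without overlap, Fth1 by 1.16 ± 0.17 and Ftl1 by 1.10 ± 0.22 on the log2 scale (limma, adjusted p = 3.52e-05 and 0.000757). GFPdim cells overlapped GFPbright cells in both genes, and neither was called there. Against GFPdim cells, villus was higher by 0.86 ± 0.18 for Fth1 (adjusted p = 0.00122) and 0.76 ± 0.24 for Ftl1 (adjusted p = 0.0190), and the Ftl1 call was lost without GFPdim 2, GFPdim 3, villus 1 or villus 2 (adjusted p of 0.05001 to 0.0924).

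In hair follicle cells Fth1 was at 2035.9, 1972.2 and 1621.9 and Ftl1 at 1609.1, 1308.3 and 2029.0. Fth1 thus lay below every GFPbright array, and Ftl1 above every one of them. The log2 differences from GFPbright were -0.50 ± 0.17 for Fth1 (limma, adjusted p = 0.0230) and 1.28 ± 0.22 for Ftl1 (adjusted p = 0.000220). The Fth1 call was lost without GFPbright 4 or hair follicle 3 (adjusted p = 0.0565 and 0.108). Against villus, Fth1 was lower in hair follicle cells by a log2 difference of -1.66 ± 0.18 (adjusted p = 1.59e-06), while Ftl1 overlapped (0.18 ± 0.24, adjusted p = 0.572).

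**Figure D2:**
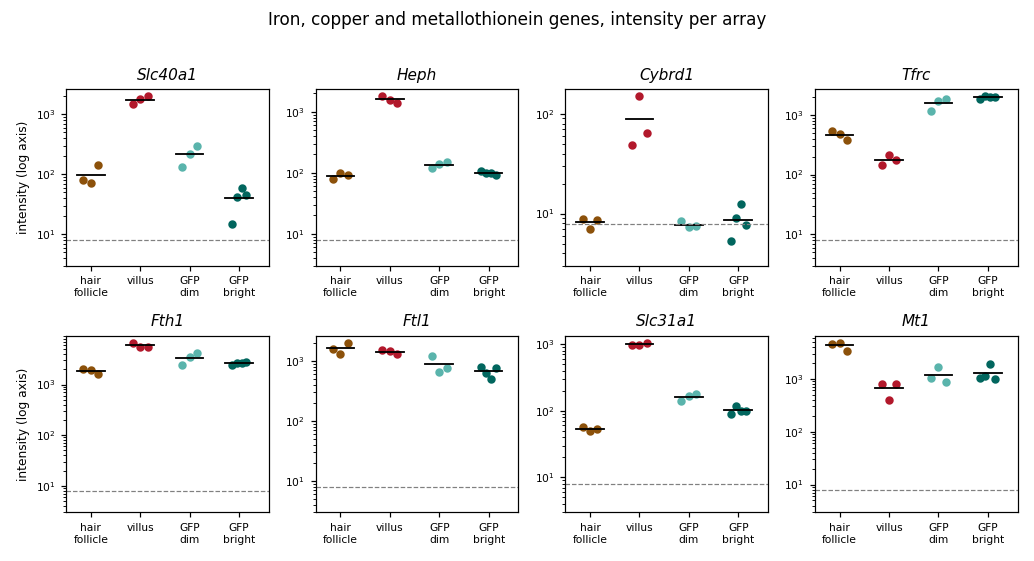
Intensity on every array (points, log axis) of iron, copper and metallothionein genes in hair follicle, villus, GFPdim and GFPbright samples, with the arithmetic mean of a group as a bar and the receptor level of 7.9 dashed. Villus points stand highest for Slc40a1, Heph, Cybrd1, Fth1 and Slc31a1 and lowest for Tfrc, and the hair follicle points stand highest for Mt1.

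Among the copper genes, Slc31a1, the copper importer Ctr1, moved like the iron exporter genes in the intestine. Its group means were 991 ± 52.1 in villus, 161 ± 19.1 in GFPdim and 101 ± 12.5 in GFPbright cells (SD, n = 3, 3 and 4 arrays), and 53.3 ± 4.12 in hair follicle cells (n = 3). The 4 groups did not overlap. The log2 difference from GFPbright was 3.30 ± 0.13 for villus, 0.67 ± 0.13 for GFPdim and -0.92 ± 0.13 for hair follicle cells (limma, adjusted p = 7.20e-11, 0.00238 and 2.67e-05). A second Slc31a1 probe set was called for villus (1.94) and hair follicle cells (-1.53), but not for GFPdim cells (0.27, limma, adjusted p = 0.537).

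Atp7a, a copper pump that in enterocytes delivers copper to the blood side, was higher in villus and in hair follicle cells. Its means were 121 ± 15.3 in hair follicle cells, 282 ± 31.5 in villus, 76.3 ± 11.4 in GFPdim and 73.1 ± 15.8 in GFPbright cells. The log2 difference from GFPbright was 1.97 ± 0.17 for villus and 0.74 ± 0.17 for hair follicle cells (limma, adjusted p = 1.73e-07 and 0.00190). Slc31a2, a relative of Ctr1 found on inner membranes, had means of 99.4 ± 11.7 in hair follicle cells, 34.2 ± 4.77 in villus, 28.1 ± 5.10 in GFPdim and 34.1 ± 1.19 in GFPbright cells. It was higher in hair follicle cells by 1.54 ± 0.14 over GFPbright cells (adjusted p = 5.35e-07), and villus differed from GFPbright cells by -0.01 ± 0.14 without a call. Under quantile normalization villus was called above GFPbright and GFPdim cells, by 0.40 and 0.52 (limma, adjusted p = 0.0177 and 0.00673). Atp7b, the copper pump of the liver, remained near the receptor level, with group means of 7.10 to 9.57. Its higher value in villus, at least 1.18-fold over GFPbright cells (adjusted p = 0.0313), was lost without any one of 5 arrays, GFPbright 1, 2 or 4 or villus 2 or 3 (adjusted p of 0.0586 to 0.101).

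Mt1, a metallothionein whose gene is switched on by zinc, other metals and stress, was the only metallothionein gene measured. It stood at 4618.8, 4753.3 and 3406.1 in hair follicle cells, 804.0, 401.1 and 802.4 in villus, 1052.7, 1642.3 and 861.5 in GFPdim cells, and 1015.6, 1141.5, 1929.0 and 981.5 in GFPbright cells. Every hair follicle array was above every intestinal one, and every villus array was below every crypt array. The log2 difference from GFPbright was 1.79 ± 0.30 for hair follicle cells and -0.93 ± 0.30 for villus (limma, adjusted p = 0.000153 and 0.0182), and hair follicle cells exceeded villus by 2.72 ± 0.32 (adjusted p = 4.09e-06). The villus call was lost without GFPbright 3 or villus 2 (adjusted p = 0.0534 and 0.117). Against GFPdim cells the villus difference was -0.84 ± 0.32 (adjusted p = 0.0489), and it was lost without GFPdim 1, GFPdim 2 or villus 2 (adjusted p of 0.0712 to 0.229).

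The arrays with the highest Mt1 value of the hair follicle, GFPdim and GFPbright groups, hair follicle 2, GFPdim 2 and GFPbright 3, carry the same number in their titles. The probe set used may also match related transcripts by its design, and the other Mt1 probe set gave 2.66 for hair follicle cells and -0.54 for villus against GFPbright, the villus value without a call. The 5 early response and stress genes measured, Fos, Jun, Atf3, Egr1 and Hspa1b, moved with Mt1, with a sum of 31652.4 to 40747.3 in hair follicle cells, 2453.6 to 3324.6 in villus, 10751.9 to 12271.5 in GFPdim and 7292.3 to 13463.9 in GFPbright cells. Their part in the Mt1 difference was not tested.

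Mt1, together with the zinc exporter gene Slc30a1, is a known target of the zinc-sensing factor Mtf1, which binds metal response elements. The core of this element, TGCACNC or TGCGCNC, was searched on both strands in the 250 bases before a transcript start of each gene in RefSeq (build GRCm38.p6), where overlapping matches were counted apart. Windows were given for 34 of the 41 genes, and 19 of the 34 held at least 1 core. Counted by window, 20 of 41 windows (48.8%) held a core, beside 21.4% of all 32851 windows, 5.17% with at least 2 and 1.26% with at least 3. The 3 windows printed here are shown because Mt1 and Slc30a1 are known Mtf1 targets and Slc30a10 held the most matches of the measured genes, with the core in capitals, read along the gene's strand. They are chr8:94178839-94179088 (plus strand) for Mt1, chr1:191906531-191906780 (plus strand) for Slc30a1 and chr1:185454598-185454847 (plus strand) for Slc30a10.
Mt1: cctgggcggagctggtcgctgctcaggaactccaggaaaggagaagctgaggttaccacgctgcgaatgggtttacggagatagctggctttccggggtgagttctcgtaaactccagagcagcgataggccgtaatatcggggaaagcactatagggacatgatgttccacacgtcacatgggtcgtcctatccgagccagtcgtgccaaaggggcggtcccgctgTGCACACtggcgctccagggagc
Slc30a1: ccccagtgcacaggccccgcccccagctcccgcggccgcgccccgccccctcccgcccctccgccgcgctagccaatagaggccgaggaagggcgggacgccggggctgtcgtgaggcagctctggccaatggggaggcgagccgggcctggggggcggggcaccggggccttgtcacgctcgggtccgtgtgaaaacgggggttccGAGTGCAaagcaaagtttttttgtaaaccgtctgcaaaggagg
Slc30a10: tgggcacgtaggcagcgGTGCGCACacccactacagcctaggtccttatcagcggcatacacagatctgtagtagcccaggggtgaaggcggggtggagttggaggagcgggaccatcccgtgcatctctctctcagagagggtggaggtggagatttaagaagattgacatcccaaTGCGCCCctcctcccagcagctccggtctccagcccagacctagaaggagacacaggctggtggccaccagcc
For Mt1 and Slc30a1 the start used lies downstream of the outermost start of the gene in RefSeq, so their windows end inside the annotated gene. Most of the Mt1 window lies inside the gene, which begins at 94178883, so few bases before that outermost start were searched. The Mt1 window held 1 core, 23 bases before the start used. The Slc30a1 window also held 1, on the opposite strand, 43 bases before the start used. In the Slc30a10 window 3 matches were found, and 2 of them overlap each other. A match describes the letters only, and binding was not measured here. In the 50 bases after the start used, the loop of the iron responsive element, CAGTGN, was present for 2 of the 34 genes, Slc39a5 and Slc41a3, and in 7.08% of all windows. No match was found there for Fth1, Ftl1 or Tfrc, whose transcripts are bound by an iron regulatory protein. The search covered only this short stretch at the start, and an element elsewhere in a transcript could not be found by it. For Slc40a1 no window was given. The absence of a match therefore cannot say which of these genes carry the element.

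Slc30a1 encodes ZnT1, which exports zinc across the plasma membrane. It averaged 419 ± 84.7 in hair follicle cells, 309 ± 48.0 in villus, 132 ± 13.4 in GFPdim and 82.2 ± 31.9 in GFPbright cells (SD, n = 3, 3, 3 and 4 arrays). Both hair follicle and villus arrays lay above all crypt arrays, by 2.42 ± 0.26 for hair follicle cells and 1.99 ± 0.26 for villus against GFPbright on the log2 scale (limma, adjusted p = 1.94e-06 and 1.25e-05). GFPdim against GFPbright gave 0.77 ± 0.26, which did not pass (adjusted p = 0.0579), but passed without GFPbright 3 (0.99, adjusted p = 0.00977). In hair follicle cells Slc30a1 moved with Mt1 and the stress genes above, and in villus it was higher while these were lower.

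Slc30a10 encodes a carrier that exports manganese from the cell. It had 183.5, 237.0 and 231.1 in villus, 6.8, 18.5 and 10 in GFPdim cells, 6.4, 4.4, 5.7 and 5.1 in GFPbright cells, and 5.8, 4.6 and 5.5 in hair follicle cells. Signal above the receptor level was found on every villus array and on GFPdim 2 and 3, and on no GFPbright or hair follicle array. Villus was at least 27.3-fold above both GFPbright and hair follicle cells (limma, adjusted p = 5.90e-10 and 6.13e-10), and GFPdim at least 1.37-fold above GFPbright cells (adjusted p = 0.0157). Villus exceeded GFPdim cells by a log2 difference of 4.32 ± 0.28 (adjusted p = 2.18e-08).

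Slc30a2 encodes a carrier that loads zinc into secretory vesicles, known in Paneth cells and the mammary gland. The values were 4.1, 6.5 and 4.8 in hair follicle cells, 232.5, 218.8 and 188.3 in villus, 10.8, 66.8 and 36.0 in GFPdim cells, and 80.5, 74.4, 60.3 and 43.2 in GFPbright cells. All hair follicle arrays were below the receptor level, all villus arrays were the highest, and the GFPdim arrays were spread over a wide range. Hair follicle cells were at least 7.96-fold below GFPbright cells and at least 26.9-fold below villus (limma, adjusted p = 7.61e-06 and 1.85e-07). Villus was above GFPbright cells by 1.76 ± 0.44 (adjusted p = 0.00409) and above GFPdim cells by 2.84 ± 0.47 (adjusted p = 0.000195). The value against GFPdim cells was 2.11 without GFPdim 1 and 3.43 without GFPdim 2. GFPdim against GFPbright gave -1.09 ± 0.44 (adjusted p = 0.120), and -1.67 (adjusted p = 0.0102) without GFPdim 2. The sum of 3 Paneth cell markers was 278.2 to 393.2 in villus, 5024.8 to 9239.9 in GFPdim and 711.4 to 1438.2 in GFPbright cells. It came mostly from Itln1, with means of 291 in villus, 5574 in GFPdim and 1026 in GFPbright cells. Of the 3 markers 2 were called lower in villus than in GFPbright cells and 1 was not called. The part of Paneth cells in the Slc30a2 differences was not tested.

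The carriers of the secretory pathway Slc30a4, Slc30a5 and Slc30a6, and Slc30a9, were all higher in villus than in GFPbright cells, with log2 differences of 0.51 to 1.41. Slc30a5 and Slc30a6, whose proteins pair with each other, averaged 689 and 257 in villus and 311 and 134 in GFPbright cells. In hair follicle cells Slc30a5 was lower than in GFPbright cells by -0.91 ± 0.13 (limma, adjusted p = 3.77e-05), and Slc30a9 and Slc30a6 were lower by -0.46 and -0.36, while Slc30a4 was higher by 0.45. Under quantile normalization the hair follicle calls of Slc30a6 and Slc30a9 were lost, and that of Slc30a6 also without hair follicle 1 or 2 (adjusted p = 0.0611 and 0.0686). Slc30a7, a carrier of the Golgi, was called with the probe set used only as lower in hair follicle cells than in villus (-0.73, limma, adjusted p = 0.00805). Villus against GFPbright gave 0.41 (adjusted p = 0.0951), but it was called with the second probe set (0.96, adjusted p = 0.00121), under quantile normalization (0.59, adjusted p = 0.00465) and in a fit of these arrays alone (adjusted p = 0.0110). GFPdim against GFPbright was called under quantile normalization (0.67, adjusted p = 0.00739) and without GFPdim 1 (0.77, adjusted p = 0.00163). Slc30a3, known from synaptic vesicles, lay between 15.1 and 19.6 on all arrays with no call, though villus was called above GFPbright cells under quantile normalization (0.35, adjusted p = 0.0363), and Slc30a8, of insulin granules, was below the receptor level throughout.

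Among the ZIP importers, Slc39a4 was high in villus and without signal above the receptor level in hair follicle cells. The gene encodes the main zinc importer of the intestinal brush border. It had 5.3, 7.1 and 7.4 in hair follicle cells, 973.6, 1124.1 and 1329.5 in villus, 248.9, 213.8 and 229.7 in GFPdim cells, and 136.9, 130.9, 134.9 and 95.9 in GFPbright cells. The 4 groups did not overlap, and only the hair follicle arrays were below the receptor level. The log2 difference from GFPbright was 3.20 ± 0.16 for villus and 0.90 ± 0.16 for GFPdim cells (limma, adjusted p = 1.04e-09 and 0.00187). Hair follicle cells were at least 15.6-fold below GFPbright cells and at least 143-fold below villus (adjusted p = 4.11e-11 and 2.32e-13).

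Slc39a5, a zinc importer of the basolateral side, was likewise below the receptor level in hair follicle cells and differed less within the intestine. Its values were 3.3, 5.0 and 4.4 in hair follicle cells, 156.5, 176.8 and 195.4 in villus, 95.5, 148.2 and 164.2 in GFPdim cells, and 99.9, 125.5, 117.6 and 118.9 in GFPbright cells. Hair follicle cells were at least 14.6-fold below GFPbright cells and at least 22.2-fold below villus (limma, adjusted p = 5.16e-11 and 1.99e-11). Villus was 0.61 ± 0.19 above GFPbright cells on the log2 scale (adjusted p = 0.0154), a call that was lost without villus 3 (adjusted p = 0.0655), and GFPdim cells overlapped both.

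In contrast, Slc39a10 and Slc39a6, which encode closely related importers that can form a complex with each other, fell along the crypt and villus. Slc39a10 had 259.6, 327.8 and 182.4 in hair follicle cells, 8.9, 9.0 and 10.5 in villus, 40.1, 65.6 and 73.0 in GFPdim cells, and 137.2, 164.1, 142.7 and 157.3 in GFPbright cells. Its 4 groups did not overlap, with hair follicle cells at the top and villus just over the receptor level. The log2 difference from GFPbright was -3.99 ± 0.21 for villus and -1.38 ± 0.21 for GFPdim cells (limma, adjusted p = 1.54e-09 and 0.000549). For hair follicle cells it was 0.73 ± 0.21 (adjusted p = 0.0103), and the call was lost without hair follicle 2 (0.54, adjusted p = 0.0618). A dimmer second probe set of Slc39a10 was called for villus against GFPbright, at -1.93 (limma, adjusted p = 3.92e-05). It was not called for GFPdim cells (-0.85, adjusted p = 0.0623) or hair follicle cells (0.58, adjusted p = 0.111).

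Slc39a6 stood at 570.8, 575.5 and 588.8 in hair follicle cells, 15.7, 10.7 and 7.6 in villus, 16.5, 38.9 and 20.8 in GFPdim cells, and 40.8, 54.8, 76.6 and 54.0 in GFPbright cells. Hair follicle arrays agreed closely with each other and exceeded every intestinal array, at a log2 difference of 3.39 ± 0.29 from GFPbright cells and 5.74 ± 0.31 from villus (limma, adjusted p = 2.29e-07 and 1.05e-09). Against GFPbright cells, villus was at -2.35 ± 0.29 and GFPdim cells at -1.22 ± 0.29 (adjusted p = 8.74e-06 and 0.0110), and the GFPdim call was lost without GFPdim 1 (-0.96, adjusted p = 0.0594). Villus against GFPdim cells gave -1.13 ± 0.31 (adjusted p = 0.00914), with an adjusted p of 0.0505 without villus 3. A dimmer second probe set of Slc39a6 repeated the hair follicle difference (2.73) but not the intestinal calls, at -0.34 for villus and -0.11 for GFPdim cells against GFPbright (adjusted p = 0.125 and 0.786).

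Slc39a8, an importer of manganese and zinc, followed the same order. It averaged 317 ± 60.7 in hair follicle cells, 22.5 ± 0.100 in villus, 137 ± 12 in GFPdim and 155 ± 15.5 in GFPbright cells. Villus was lower than GFPbright cells by a log2 difference of -2.78 ± 0.14 and hair follicle cells were higher by 1.02 ± 0.14 (limma, adjusted p = 6.88e-10 and 2.07e-05), while GFPdim cells overlapped GFPbright cells. A second Slc39a8 probe set, with group means of 6.87 to 11.9 near the receptor level, gave -0.12 for villus and 0.59 for hair follicle cells against GFPbright (adjusted p = 0.762 and 0.0819), neither called. Slc39a13, a carrier known from connective tissue and the Golgi, averaged 68.4 ± 17.3 in hair follicle cells, 13.4 ± 3.5 in villus, 17.6 ± 2.10 in GFPdim and 18.5 ± 1.19 in GFPbright cells. Its hair follicle difference from GFPbright was 1.86 ± 0.19 (adjusted p = 1.15e-06). The lower value in villus (-0.50, adjusted p = 0.0389) was lost without any one of the 4 GFPbright arrays, villus 1 or villus 2 (adjusted p of 0.0540 to 0.225), and under quantile normalization (-0.19, adjusted p = 0.540).

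Slc39a2, a zinc importer known from keratinocytes, was above the receptor level on every hair follicle array. It had 40.7, 33.9 and 62.4 in hair follicle cells, 7.0, 7.6 and 7.4 in villus, 12.4, 7.2 and 8.1 in GFPdim cells, and 6.6, 7.2, 7.2 and 6.5 in GFPbright cells. The hair follicle arrays stood clear of all intestinal arrays, where GFPdim 1 was the highest. Hair follicle cells were at least 5.59-fold above both GFPbright cells and villus (limma, adjusted p = 6.15e-08 and 1.18e-07).

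Slc39a14 and Slc39a9 were higher in villus and lower in hair follicle cells than in GFPbright cells. Slc39a14, a carrier of zinc, manganese and free iron, averaged 46.1 ± 7.11 in hair follicle cells, 529 ± 36.5 in villus, 206 ± 48.2 in GFPdim and 134 ± 24.1 in GFPbright cells. Villus was above GFPbright cells by 2 ± 0.18 on the log2 scale and hair follicle cells were below them by a log2 difference of -1.53 ± 0.18 (limma, adjusted p = 3.74e-07 and 6.17e-06). For Slc39a9, of the Golgi, the differences were 2.05 ± 0.12 in villus and -0.44 ± 0.12 in hair follicle cells (adjusted p = 3.12e-09 and 0.00606), and the hair follicle call was lost under quantile normalization. Slc39a1, an importer at the surface of many cell types, was 0.70 ± 0.14 higher in villus (adjusted p = 0.000546), and hair follicle cells overlapped GFPbright cells at -0.28 ± 0.14 (adjusted p = 0.114).

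A different course was seen for 2 ZIP genes whose GFPdim arrays were the highest of the intestine. Slc39a7, which releases zinc from the endoplasmic reticulum, averaged 163 ± 6.65 in villus, 333 ± 73.4 in GFPdim and 175 ± 17.1 in GFPbright cells. GFPdim cells exceeded GFPbright cells by 0.92 ± 0.15 and villus fell below GFPdim cells by a log2 difference of -1.01 ± 0.16 (limma, adjusted p = 0.000913 and 0.000135), while villus and GFPbright cells overlapped. Slc39a11 averaged 229 ± 6.24 in villus, 391 ± 22.2 in GFPdim and 269 ± 24.6 in GFPbright cells, and 53.4 ± 12.6 in hair follicle cells, which were lower than GFPbright cells by -2.36 ± 0.15 (adjusted p = 8.51e-09). Its GFPdim difference from GFPbright, 0.54 ± 0.15 (adjusted p = 0.0231), was lost without GFPbright 1 or 4 or GFPdim 2 or 3 (adjusted p of 0.0533 to 0.0717). Paneth and enteroendocrine markers were also highest in GFPdim cells, with sums of 5024.8 to 9239.9 and 3761.6 to 5078.1. In GFPbright cells these sums were 711.4 to 1438.2 and 128.6 to 255.8. The sum of 4 goblet markers was highest in GFPdim cells as well, at 15273.2 to 17328.5. It was 12945.7 to 14468.4 in villus and 877.2 to 1930.8 in GFPbright cells. Of these 4 markers 4 were called higher in GFPdim than in GFPbright cells, while 1 was called higher and 1 lower in villus than in GFPdim cells. By contrast, the sum of 3 tuft markers was highest in villus (75.4 to 90.3, against 24.9 to 38.8 in GFPdim cells). The part of all these cells was not tested. Slc39a3 gave no call in any comparison with the probe set used. Its second probe set was called lower in hair follicle cells, by -0.86 against GFPbright cells and -1.04 against villus (limma, adjusted p = 0.00303 and 0.00105), and under quantile normalization villus was called above GFPdim cells (0.65, adjusted p = 0.00946). Slc39a12 was below the receptor level throughout.

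**Figure D3:**
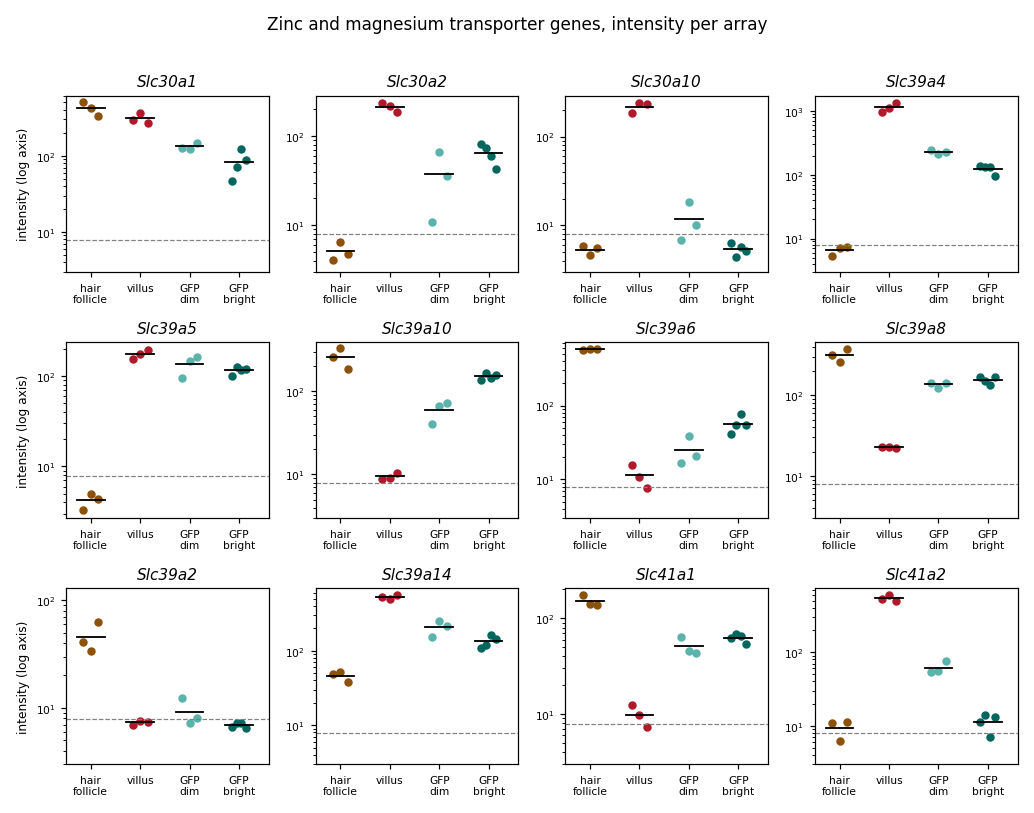
Intensity on every array (points, log axis) of 10 zinc carrier genes and 2 magnesium carrier genes in hair follicle, villus, GFPdim and GFPbright samples, with the arithmetic mean of a group as a bar and the receptor level of 7.9 dashed. Slc39a4, Slc39a5 and Slc30a2 lie below the dashed line in hair follicle cells, Slc39a6 and Slc39a2 are highest there, and Slc39a10, Slc39a6, Slc39a8 and Slc41a1 are lowest in villus.

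The magnesium carrier genes Slc41a1 and Slc41a2 moved in opposite directions. Slc41a2 had 10.8, 6.2 and 11.2 in hair follicle cells, 528.9, 593.2 and 493.5 in villus, 53.0, 55.9 and 75.7 in GFPdim cells, and 11.2, 13.8, 7.1 and 13 in GFPbright cells. The intestinal groups did not overlap, with GFPdim cells between the others, and hair follicle cells overlapped GFPbright cells near the receptor level. The log2 difference from GFPbright was 5.62 ± 0.25 for villus and 2.47 ± 0.25 for GFPdim cells (limma, adjusted p = 2.28e-10 and 1.16e-05). Villus exceeded GFPdim cells by 3.14 ± 0.26 (adjusted p = 2.91e-07), and hair follicle cells were below villus by a difference of -5.89 ± 0.26 (adjusted p = 1.27e-10).

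Slc41a1, a sodium-dependent exporter of magnesium at the cell surface, averaged 151 ± 21.8 in hair follicle cells, 9.83 ± 2.60 in villus, 50.8 ± 11 in GFPdim and 62.7 ± 6.37 in GFPbright cells. Villus was lower than GFPbright cells by -2.70 ± 0.19 and hair follicle cells were higher by 1.27 ± 0.19 on the log2 scale (limma, adjusted p = 2.27e-08 and 5.12e-05). GFPdim cells overlapped GFPbright cells. Slc41a3, of mitochondria, stayed between 7.3 and 16.5, with villus 0.59 ± 0.15 above GFPbright cells (adjusted p = 0.00423).

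A number in the titles is shared by 3 pairs of GFPdim and GFPbright arrays, which allowed a fit with that number as a block, though the labels do not say what it marks. Hair follicle 2 and GFPbright 3 also share such a number, and their residuals correlated at only 0.0131. Of the 11 genes called between them, Slc40a1, Slc41a2, Slc30a10, Slc39a4, Slc39a7, Slc31a1, Slc39a11, Slc39a14 and Heph were higher in GFPdim cells, and Slc39a10 and Slc39a6 lower. With the replicate block 10 were called, 8 higher and 2 lower, and Heph was the gene lost. Slc39a14 was called (0.61 ± 0.18, limma, adjusted p = 0.0362) although its groups overlap, and the call was lost without GFPbright 1, 2 or 4 or GFPdim 2 or 3 (adjusted p of 0.0517 to 0.139). Of the 39 genes 13 had groups that do not overlap in this comparison, beside 26.5% of all genes. Over all genes 1080 were higher and 1773 lower in GFPdim cells, but 1380 and 1410 under quantile normalization, so the balance of directions depends on the scaling, and for the 39 genes it was 13 and 2. GFPdim 1 has the lowest 75th percentile of the arrays, and without it 11 of the 39 genes were higher and 1 lower, beside 1198 and 1054 of all genes.

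Beyond these genes, 47 further genes of iron and heme, zinc, copper and magnesium handling were measured of 54 listed. Villus had 14 of them higher and 15 lower than GFPbright cells, beside 22.6% and 26.3% of all genes. Hair follicle cells had 10 higher and 23 lower, beside 19.4% and 29.1% of all genes. Flvcr1, a carrier of heme and choline, averaged 843 ± 107 in villus and 72.2 ± 21.8 in GFPbright cells (log2 difference 3.58 ± 0.30, limma, adjusted p = 1.36e-07). Ncoa4, the receptor that brings ferritin to the lysosome, averaged 1441 ± 302 in villus and 185 ± 15.9 in GFPbright cells (2.95 ± 0.20, adjusted p = 1.87e-08). The metalloreductase genes Steap1 and Steap2 were lower in villus than in GFPbright cells, by at least 9.09-fold and 7.27-fold (adjusted p = 2.37e-08 and 9.14e-09).

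In hair follicle cells their relative Steap4 was the most raised of the 47, at 422 ± 5.22, against 5.18 ± 1.19 in GFPbright cells, or at least 53.4-fold (limma, adjusted p = 7.70e-13). Steap1 was lower there by a log2 difference of -2.85 ± 0.23 (adjusted p = 1.31e-07). Abcg2, an exporter of porphyrins and drugs, averaged 36.8 ± 6.22 in hair follicle cells and 189 ± 23.1 in GFPbright cells (-2.36 ± 0.14, adjusted p = 4.58e-09). Aco1, which encodes an iron regulatory protein that binds the transcripts of Tfrc and ferritin, averaged 41.3 ± 7.17 in hair follicle cells and 196 ± 17.5 in GFPbright cells (-2.26 ± 0.22, adjusted p = 9.38e-07).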

How the data were processed

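The authors deposited linear intensities per probe set from the RMA-sketch method in Affymetrix Power Tools (background correction, normalization across arrays and summary of probes, which tie the arrays to a common distribution); no version is given in the sources used here. RNA was from 13 samples, by the labels. Intensities were used as log2 without another normalization. Of 45141 probe sets, 28898 name a single gene by the platform annotation, 551 name several and 15692 are not in the name table. Each of 17097 genes was read from its single-gene probe set of highest mean. Titles gave the groups.

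Groups were compared with limma 3.58.1 (lmFit and eBayes, R 4.3.3), fitted on all 13 arrays, with Benjamini-Hochberg adjustment over all genes and calls at an adjusted p under 0.05. The fit was tested on simulated data. Each result was recomputed with quantile normalization, with 16 added before log2, with only genes above the receptor level, with the probe set of highest variance, with only the arrays compared, with an intensity trend and robust fit, with the methods' t-test at 0.01 and after adjustment, and without each array in turn. A number in the titles, whose meaning is not given, is shared by 3 pairs of a GFPdim and a GFPbright array. Residuals of these pairs correlated at 0.291, 0.451 and 0.320, so the number was fitted as a replicate block. The genes, lists and tests were chosen with earlier results of these data known. Values on every array are given for the iron entry, exit and storage genes, for the metallothioneins and, in each comparison, for the 5 genes with the largest log2 difference among those called without overlap and with a group above the receptor level; of the 47 further metal genes, the 4 with the largest difference are named for villus and for hair follicle cells against GFPbright. Figures were drawn with matplotlib 3.10.9.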

Additional observations from a re-analysis of the deposited data

Results flagged for a closer look

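Within the 4 GFPbright arrays, 4 of the 39 genes had an array far from the rest, measured as the gap to the nearest array over the range of the group and set against Dixon's critical value for 4 arrays; chance flags about 1 in 20 groups. GFPbright 3 was highest for Atp7a (96.7, against 63.9 to 66.8 on the others; ratio 0.912), for Mt1 (1929.0, against 981.5 to 1141.5; ratio 0.831) and for Slc11a1 (7.4, against 4.9 to 5.1, all below the receptor level; ratio 0.920). GFPbright 4 was lowest for Slc39a4 (95.9, against 130.9 to 136.9; ratio 0.854).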

How the results depend on the processing

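Counts of called members of this gene group stayed within 1.5 times under the alternatives, except in GFPdim against GFPbright, where the methods' t-test after adjustment called 6 of the 39 genes in place of 11, and 1595 of all genes in place of 2853. For villus against GFPdim it called 4795 of all genes at its own threshold, in place of 7202, and 21 of the 39 in place of 28. With the replicate block 10 were called, and no other call of that comparison changed than Heph. Leaving out 1 array gave 8 to 12 called genes for GFPdim against GFPbright, 26 to 29 for villus against GFPbright, 26 to 28 for villus against GFPdim, 23 to 25 for hair follicle cells against GFPbright and 30 to 32 for hair follicle cells against villus. Some directions turned. Under quantile normalization Slc30a3 and Slc31a2 became 0.35 and 0.40 in villus against GFPbright (called, adjusted p = 0.0363 and 0.0177), where both had been -0.01 without a call. Cybrd1 in hair follicle cells against GFPbright was -0.01 without a call and 0.62 with the other probe set (adjusted p = 0.0335), where hair follicle cells averaged 5.67 and GFPbright cells 3.70, both below the receptor level. The other probe set of Slc41a1, below the receptor level in these groups, gave 0.37 for villus against GFPbright (adjusted p = 0.126) in place of -2.70. The cause was not tested. Called differences were also read from the other probe sets of a gene above the receptor level, with each probe set counted apart. Of these 64 readings, 64 had the same direction and 53 were called again. Genes with several other probe sets count more than once among them. With 16 added before log2, differences of dim genes shrink by construction, and the GFPdim call of Slc30a10 was lost. Group means near the receptor level limit what can be said of Cybrd1, Atp7b, Slc30a10, Slc39a2 and Slc41a3.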
